A study of Eohaustorius estuarius with 16 samples.

Results

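Of 7556 probes tested on an oligonucleotide array of the estuarine amphipod Eohaustorius estuarius, 53 read higher in every cyfluthrin-exposed animal than in any control animal. They are the subject here. The members were chosen on the measured exposure difference itself: a probe was a member if the lowest of its 8 exposed values lay above the highest of its 8 control values. Probes that met this rule were 0.701% of those tested, out of 8507 probes on the array. Because the rule used the exposure contrast, levels, differences and fold changes of the members are descriptions of their size and carry no test.

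Eohaustorius estuarius is a burrowing crustacean of sandy shores that serves as a test species for contaminated sediments. For exposed animals the sediment was spiked with cyfluthrin at a nominal 1.6 µg/kg, and for control animals with solvent only, and both groups were kept there for 10 days. Total RNA of whole bodies, 8 exposed and 8 control, was extracted in 1 laboratory, labelled with Cy3 and hybridised to 1 array per extract in laboratory A. The labels number the extracts of a group, and p-values measure the spread between these extracts. Age, sex and strain of the animals are not given in the sources used here, and the exposure is a single nominal concentration at a single time. Since whole bodies were used, a change in the number of cells of one type and a change in RNA per cell cannot be told apart.

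Cyfluthrin is a pyrethroid insecticide. Pyrethroids keep sodium channels in nerve membranes from closing, which leads to repetitive firing and then paralysis, and crustaceans are among the animals most sensitive to them. In arthropods, pyrethroids are broken down mainly by esterases and cytochrome P450 enzymes. Each probe was designed to a separate assembled transcript (contig). The probes were annotated with contig numbers alone, so no member was assigned a gene, a function or a cell type, the whole-body label was not checked against tissue markers, and lists of detoxification, stress, cuticle, digestion, immunity and yolk genes were not used. Members are therefore given by contig number.

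Levels below are log2 of the spot signal divided by the 75th percentile of the same array. A level of 0 thus equals that percentile, and a difference of 1 is a doubling. Levels of different probes also depend on the probes themselves, so only differences between groups are set against each other. The 75th percentile ranged from 251 to 633 on exposed arrays and from 240 to 553 on control arrays. The arrays lay on 2 slides, each with 4 exposed and 4 control arrays, scanned at different times and read with different feature-extraction protocols. Exposed arrays lay in 1 row of each slide and control arrays in the other row, so slide row and exposure cannot be told apart. Tested probes were those detected, that is with a signal well above background, on 8 or more of the 16 arrays, a minimum that the 8 exposed arrays alone could satisfy.

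The 53 members spanned a wide range of differences. The exposed minus control difference ran from 0.37 to 3.74, with a median of 2.52, or 5.72-fold. Over all tested probes the median difference was -0.07. The difference lay between 3 and 4 log2 units for 22 members, between 2 and 3 for 8, between 1 and 2 for 10 and below 1 for 13. In all, 40 members were at least 2-fold higher in exposed animals, 30 at least 4-fold, 22 at least 8-fold and 14 at least 10-fold. All tested probes at least 4-fold higher (30, or 0.397% of those tested) and at least 8-fold higher (22, or 0.291%) were members. Of the 51 probes at least 2-fold higher (0.675%), 40 were members. All 53 members were called higher by limma at an adjusted p below 0.05, as were 1.14% of all tested probes, which adds nothing to a rule drawn from the same contrast.

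**Figure D1:**
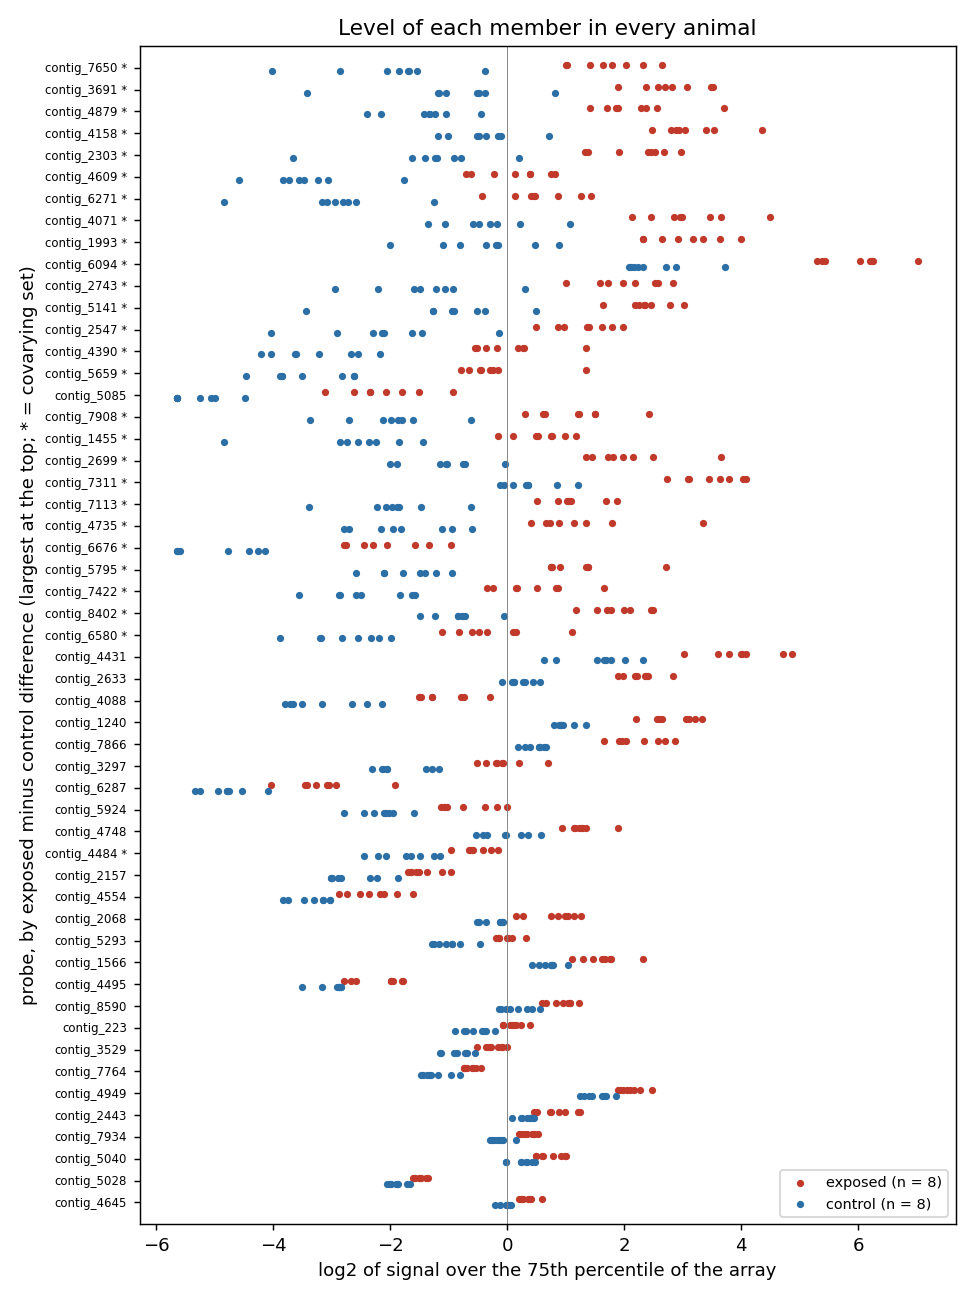
Level of each of the 53 members (log2 of signal over the array's 75th percentile) in 8 exposed and 8 control animals, 1 point per array, ordered by the exposed minus control difference from 3.74 at the top to 0.37 at the bottom; asterisks mark the covarying set of 27. By the rule no exposed point of a member lies at or left of a control point of the same member, and the distance between the groups shrinks down the plot from a gap of 1.38 at the top to 0.14 at the bottom, with the narrowest at 0.00288.

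All 53 members were well above background on all 8 exposed arrays, and 48 were on all 8 control arrays as well. Of the 7556 tested probes, 6377 were so on all exposed and 6316 on all control arrays. The members below that in control animals were contig_6287 and contig_6676, detected on 3 control arrays each, contig_5085, detected on 2, and contig_1455 and contig_6271, detected on 7. For contig_5085, 4 control values lay at the floor of -5.64 that was set before taking logarithms, and for contig_6676, 2 did. Like contig_6287, both passed the detection filter mainly through the exposed arrays. The size of the differences of contig_5085 and contig_6676 rested on the treatment of dim signals. Another background correction (normexp) added an offset of 50 to every signal, on arrays with a 75th percentile of 240 to 633. With it the difference of contig_5085 was 1.18 in place of 3.21 and that of contig_6676 was 1.02 in place of 2.99. The part of the offset in this was not tested.

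The largest difference belonged to contig_7650. Its exposed animals read 1.001 at the lowest, 1.71 at the median and 2.65 at the highest, against -4.01, -1.77 and -0.38 in control animals. A gap of 1.38 separated the groups, although control animals spread over more than 3.5 log2 units. The ratio of the group means was 13.3-fold (95% confidence interval 7.40 to 24.0, limma). For contig_4158 exposed animals read 2.48, 2.99 and 4.36 (lowest, median, highest), against -1.18, -0.41 and 0.72 in control animals. Its mean was 11.8-fold higher in exposed animals (7.87 to 17.8). Its SD was 0.58 in both groups, compared with 0.59 in exposed and 1.06 in control animals for contig_7650 (n = 8 each).

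The widest gap between groups was that of contig_4879, at 1.86. The lowest exposed animal read 1.41, the median 2.10 and the highest 3.72, against -2.40, -1.32 and -0.45 in control animals, a 12.5-fold ratio of means (7.90 to 19.8). For contig_5659, with a gap of 1.82, exposed animals read -0.79, -0.36 and 1.35, against -4.46, -3.68 and -2.61 in control animals. Here a single animal, exposed 1, stood far above the other 7 exposed animals, the next highest of which read -0.15. The probe of contig_6094 gave 5.29, 6.12 and 7.03 in exposed animals, against 2.09, 2.28 and 3.72 in control animals, and was 10.9-fold higher (7.30 to 16.3). It was a bright spot already in control animals, so the size of its difference did not rest on signals near background.

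At the other end lay members with small but orderly differences. The probe of contig_4645 gave 0.21, 0.32 and 0.60 in exposed animals (lowest, median, highest), against -0.21, -0.00 and 0.07 in control animals. The difference of 0.37 (SE 0.09) is 1.29-fold, and it separated the groups because the SD was 0.13 in exposed and 0.09 in control animals. Similarly, contig_5028 gave -1.60, -1.49 and -1.35 in exposed animals, against -2.04, -1.89 and -1.65 in control animals, a 1.31-fold difference. Small differences could enter the rule only where animals of a group varied little, so the narrow spread of these members is set by the choice.

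Members and non-members met at the edge of the rule. Just inside it, contig_2443 had a lowest exposed value of 0.47 and a highest control value of 0.46, contig_5040 had 0.49 and 0.48, and contig_3529 had -0.52 and -0.55. Just outside it, contig_1961 had a lowest exposed value of 5.536 and a highest control value of 5.543, and contig_8332 had -2.75 and -2.74. On 2 control arrays contig_1961 had no value, because its spot there was marked as an outlier. All 5 gaps are smaller than the median SD of 0.13 between duplicate spots of members on 1 array.

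The rule limited how far a member could vary within a group, but it did not use whether members vary together. For each probe, deviations from its own exposed mean and its own control mean were taken over the 16 arrays, and pairs of members were compared by Pearson's r. These correlations are descriptions over 16 arrays that share slides, labelling and scaling. Over all 1378 pairs of members the median r was 0.160, against 0.072 over all pairs of tested probes. Of the pairs of members, 420 had r above 0.5 and 492 lay below 0. The quartiles of r were -0.102 and 0.596 over these pairs, against -0.219 and 0.386 over all pairs of tested probes. A wide spread of r was thus not particular to the members. Average-linkage clustering cut at r = 0.5 placed 27 of the 53 members in a single set. The other 26 fell into 13 sets, the largest with 4 members and 5 of them with 1.

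Within the set of 27, r had a median of 0.748 and a minimum of 0.417; a high value is favoured by the clustering that formed the set. Between these 27 and the other 26 members the median r was -0.015 over both groups pooled. The other 26 had a median of 0.107 among themselves. The covariation appeared in each group apart, with a median r among the 27 of 0.817 in exposed animals and 0.759 in control animals, 8 arrays each. With deviations taken from the means of each group on each slide it was 0.735, and no pair of the 27 had a negative r in any of these.

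**Figure D2:**
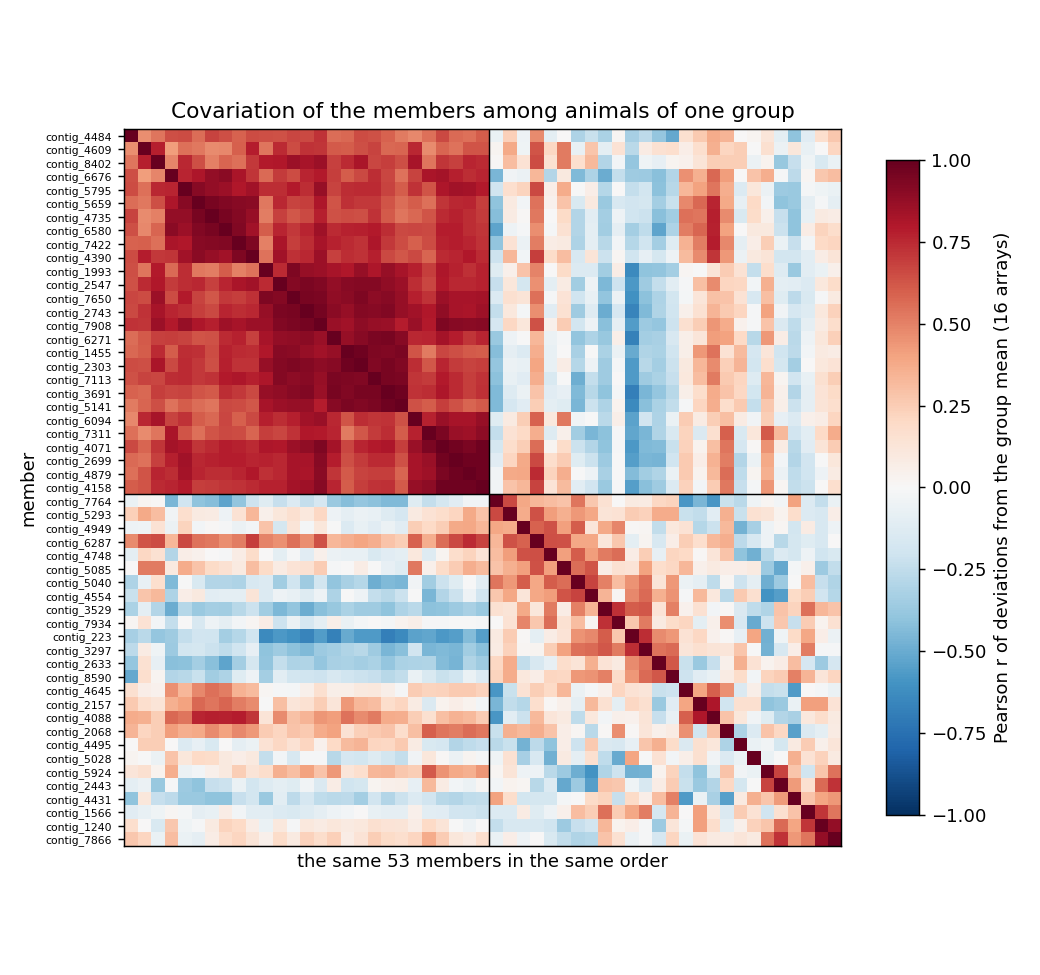
Pearson r between members of their deviations from the group means over 16 arrays, from -1 (blue) to 1 (red), with the 27 members of the covarying set before the black line and the 26 others after it, in the same order on both axes. The upper left block is red throughout, with a lowest r of 0.417, whereas most of the rest is pale or mixed, with a median r of -0.015 between the blocks.

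The covarying set held nearly all of the steep members. Of the 27, 26 were at least 4-fold and 21 at least 8-fold higher in exposed animals, and their median difference was 3.32, or 10.0-fold. Among the other 26 members, 4 were at least 4-fold and 1 at least 8-fold higher, with a median difference of 1.003. The smallest difference in the set belonged to contig_4484, named after its values were seen, with a difference of 1.22. In exposed animals it read -0.95, -0.58 and -0.15, against -2.44, -1.68 and -1.15 in control animals (lowest, median, highest). Outside the set, the member at least 8-fold higher was contig_5085, for which a fold is uncertain because it was detected on 2 control arrays. Its exposed animals read -3.11, -2.20 and -0.92, against -5.64, -5.45 and -4.48 in control animals. As 4 of its control values lay at the floor, its deviations among control animals were cut short.

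The mean level of the 27 differed widely between animals of the same group. In exposed animals it was 0.84 at the lowest, 1.49 at the median and 2.53 at the highest, a range of 3.23-fold. In control animals it was -2.92, -1.66 and -0.49, a range of 5.41-fold. The means were 1.53 ± 0.54 in exposed animals and -1.68 ± 0.69 in control animals (SD, n = 8 each). The mean of the 26 other members ranged 1.25-fold in exposed and 1.25-fold in control animals. The grouping favours this contrast. A mean keeps the spread of members that vary together and averages out that of members that do not. Single members of the 26 had an SD of up to 0.68 in exposed and 0.65 in control animals.

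Particular animals set the spread of the 27. In exposed 1 all 27 members of the set lay above their exposed means, by 1.01 on average. In exposed 6 and exposed 7 none of the 27 did, and the average deviations were -0.47 and -0.69. Among control animals, control 2 had all 27 above their control means, by 1.19 on average, and control 5 had none, with an average of -1.25. The average deviation of the other 26 members was smaller on these arrays, at 0.07 in exposed 1, -0.20 in exposed 6, -0.11 in exposed 7, -0.05 in control 2 and 0.10 in control 5. In exposed 1, in exposed 6, their lowest exposed animal, and in exposed 7 it had the same sign as that of the 27. In control 2 and control 5 the signs differed.

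**Figure D3:**
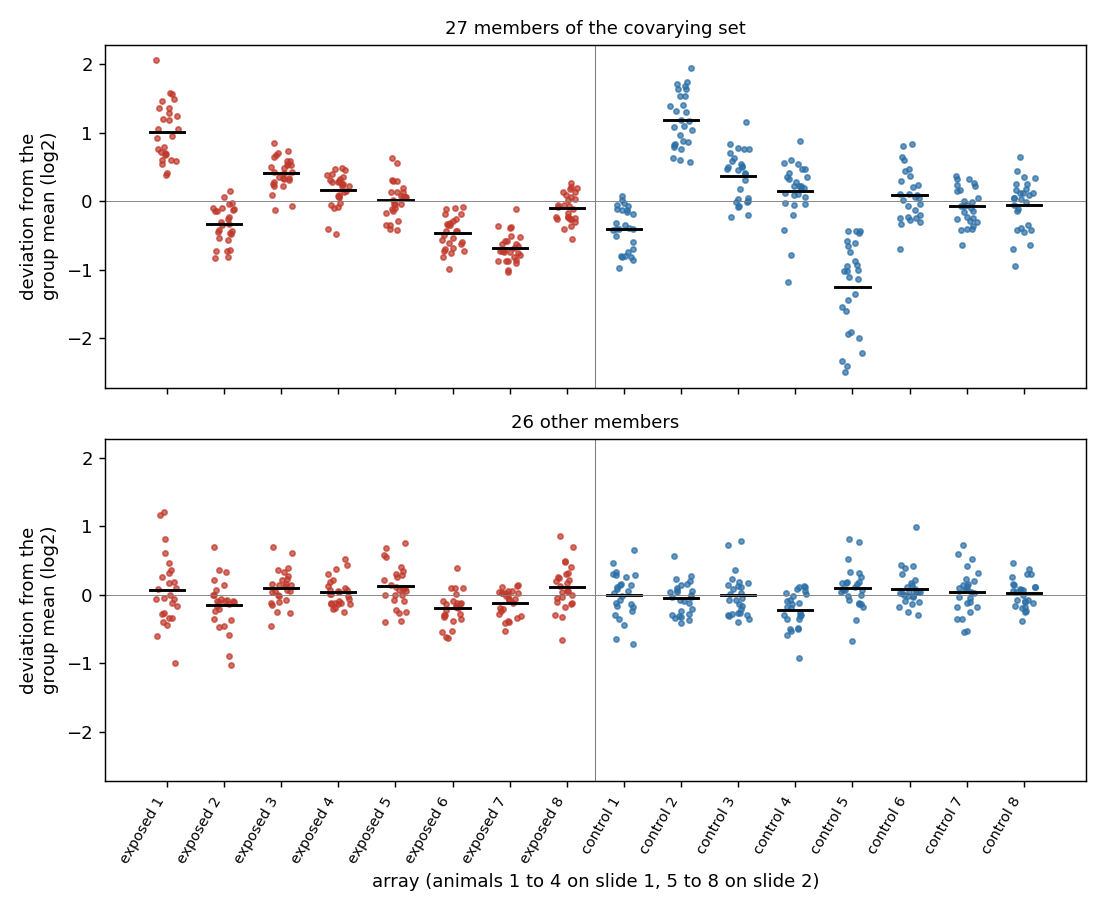
Deviation of each member from its group mean (log2) on every exposed array (red) and control array (blue), with a black line at the mean, for the covarying set of 27 above and the 26 other members below. The 27 move together, up by 1.01 in exposed 1 and 1.19 in control 2 and down by 1.25 in control 5, whereas the mean of the other 26 stays between -0.22 and 0.13 on every array.

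The edge between the groups was therefore set by few animals. For 24 of the 27, control 2 was the highest control, and control 3 was for the other 3. The lowest exposed animal was exposed 7 for 17 of them, exposed 6 for 6 and exposed 2 for 4. The mean level of the 27 was 0.84 in exposed 7, the lowest exposed animal, against -0.49 in control 2, the highest control animal. Over 16 arrays, the within-group deviation of the set had r = -0.30 with the 75th percentile, -0.44 with the negative-control signal (both log2) and -0.10 with the share of spots well above background, and the part of these in the covariation was not tested.

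Inside the set of 27 lay 3 tighter sets, of 11, 7 and 6 members, found by cutting the same tree at r = 0.8 after the values had been seen. They held 24 of the 27. The exposed minus control difference had a median of 3.44 in the set of 11, with a range from 3.08 to 3.74, of 2.99 in the set of 7, from 2.52 to 3.32, and of 3.45 in the set of 6, from 3.11 to 3.65. They differed in which animals stood out. In exposed 1 the mean of the set of 7 lay 1.43 above its exposed mean, that of the set of 6 lay 1.21 above and that of the set of 11 lay 0.75 above. In control 5 the order was otherwise, with the set of 11 at -1.94 from its control mean, the set of 7 at -0.95 and the set of 6 at -0.70.

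The set of 11 held contig_7650, contig_3691, contig_5141, contig_7908, contig_2743, contig_2547, contig_2303, contig_6271, contig_1993, contig_1455 and contig_7113. Its closest pair, contig_3691 and contig_5141, had r = 0.976, the highest of all pairs of members. For contig_3691 exposed animals read 1.90, 2.76 and 3.52 (lowest, median, highest), against -3.42, -0.78 and 0.82 in control animals. For contig_5141 they read 1.64, 2.34 and 3.03, against -3.43, -0.93 and 0.50 in control animals. In both, control 5 stood more than 2 log2 units below the next lowest control animal. The SD was 0.55 in exposed and 1.20 in control animals for contig_3691, and 0.41 in exposed and 1.13 in control animals for contig_5141.

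The set of 7 held contig_4735, contig_5659, contig_6580, contig_6676, contig_5795, contig_7422 and contig_4390. Of these, contig_4735 had the largest spread among exposed animals of any member, an SD of 0.94. Exposed animals read 0.42, 1.01 and 3.35, against -2.78, -1.87 and -0.60 in control animals, and exposed 1 was the highest, with the next at 1.79. The set of 6 held contig_4158, contig_4879, contig_4071, contig_2699, contig_6094 and contig_7311. For contig_4071 exposed animals read 2.13, 2.97 and 4.49, against -1.35, -0.39 and 1.07 in control animals. Its r was 0.975 with contig_4158, and contig_4158 in turn had 0.976 with contig_4879. Whether contigs of a tight set are pieces of 1 transcript was not tested.

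**Figure D4:**
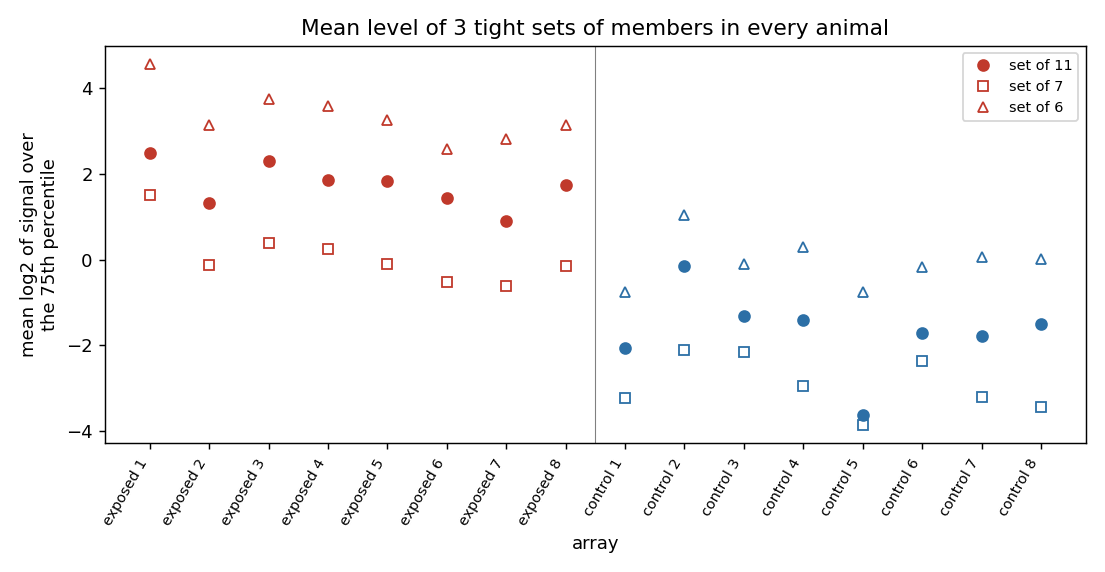
Mean log2 of signal over the 75th percentile for the sets of 11 (filled circles), 7 (open squares) and 6 (open triangles) members on every exposed array (red) and control array (blue). All 3 sets lie higher in exposed animals, by a median of 3.44, 2.99 and 3.45 in the order given, while control 5 is far lower for the set of 11 (1.94 below its control mean) than for the set of 6 (0.70 below).

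Over both groups pooled, the 26 other members did not follow the set as a rule. With the mean deviation of the 27, r was 0.5 or more for 2 of the 26 and below 0 for 14. This r was not taken in each group apart. Over all pairs of members the median r was 0.412 in exposed and 0.097 in control animals, and pooling hides a difference between the groups. In exposed animals the mean deviations of the 27 and of the 26 had the same sign in all but exposed 8 (-0.10 and 0.12). In control animals they had the same sign only in control 1 and control 6. The pooled r therefore does not show that the 26 were unrelated to the set in exposed animals. The highest pooled r with the set were those of contig_6287, at 0.567, and contig_4088, at 0.509. Of these, contig_6287 was detected on only 3 control arrays. The probe of contig_4088 was chosen for description after its values were seen: it tracked the set of 7, with r = 0.749, more than the set of 6, with 0.291. In exposed animals it read -1.51, -1.28 and -0.29, with exposed 1 the highest, against -3.80, -3.33 and -2.14 in control animals. At the other extreme, contig_223, also chosen after its values were seen, ran against the 27 at r = -0.547. In exposed animals it read -0.08, 0.10 and 0.39, against -0.90, -0.50 and -0.21 in control animals, and control 2 was its lowest control animal and control 5 its highest.

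Among steep members outside the covarying set, contig_4431 and contig_2633 had r of -0.290 and -0.371 with the mean deviation of that set. The probe of contig_4431 gave 3.03, 4.003 and 4.87 in exposed animals (lowest, median, highest), against 0.63, 1.68 and 2.33 in control animals, a 5.47-fold ratio of means (95% confidence interval 3.65 to 8.20). It was lowest in exposed 1, the animal in which the covarying set was highest. The probe of contig_2633 gave exposed animals 1.89, 2.29 and 2.84, against -0.08, 0.20 and 0.56 in control animals, a 4.15-fold ratio (3.39 to 5.07). Exposed 1 was again the lowest exposed animal, and the spread was small in both groups, with an SD of 0.29 in exposed and 0.21 in control animals. A pair seen after the fact, contig_1240 and contig_7866, was 3.61-fold and 3.42-fold higher in exposed animals. The SD of contig_1240 was 0.39 in exposed and 0.17 in control animals, and that of contig_7866 was 0.43 and 0.17 in the same order.

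Spread within groups is bound to the rule, since a member with a small difference could pass only with a small SD and a steep one could pass with a large SD. The SD values are therefore a description. The SD was larger in control than in exposed animals for 19 of the 27, whereas it was so for 12 of the 26 others and for 44.8% of all tested probes. Since the 27 vary together, they are not separate cases in this count. Their largest average deviations among control animals were 1.19 in control 2 and -1.25 in control 5. The median SD over the 27 was 0.60 in exposed and 0.75 in control animals. For the 26 others it was 0.29 in exposed and 0.23 in control animals, and over all tested probes 0.43 and 0.39 in the same order. Spots of the same probe on 1 array differed less, as they did for most probes on the array. Of the members, 46 had 2 spots on each array, with a median SD between spots of 0.13, compared with 0.57 for the SD between animals of a group, which exceeded the spot SD in 45 of the 46. Over all tested probes with 2 spots the medians were 0.16 between spots and 0.43 between animals, and the SD between animals was larger for 5081 of 5535. For 38 of the 46 members with 2 spots, each spot taken alone separated the groups, and for 44 at least 1 spot did. The rule was applied to the mean of the same spots, so these counts are no separate check.

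Over all tested probes, the slides offered a comparison that shared no array. On slide 1 alone, 306 probes had all 4 exposed arrays above all 4 control arrays, or 4.05% of those tested, and on slide 2 alone 212 did, or 2.81%. Both lists shared 73 probes, which is 23.9% of the slide 1 list and 34.4% of the slide 2 list. The 53 members are among the 73 by construction. For 20 probes the groups were apart on each slide but not over all 16 arrays. Among the 27 of the covarying set, the difference had a median of 3.26 on slide 1, with a range from 0.99 to 4.01, and 3.25 on slide 2, with a range from 1.44 to 3.98. Among the other 26 it had a median of 1.07 on slide 1 and 0.98 on slide 2.

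**Figure D5:**
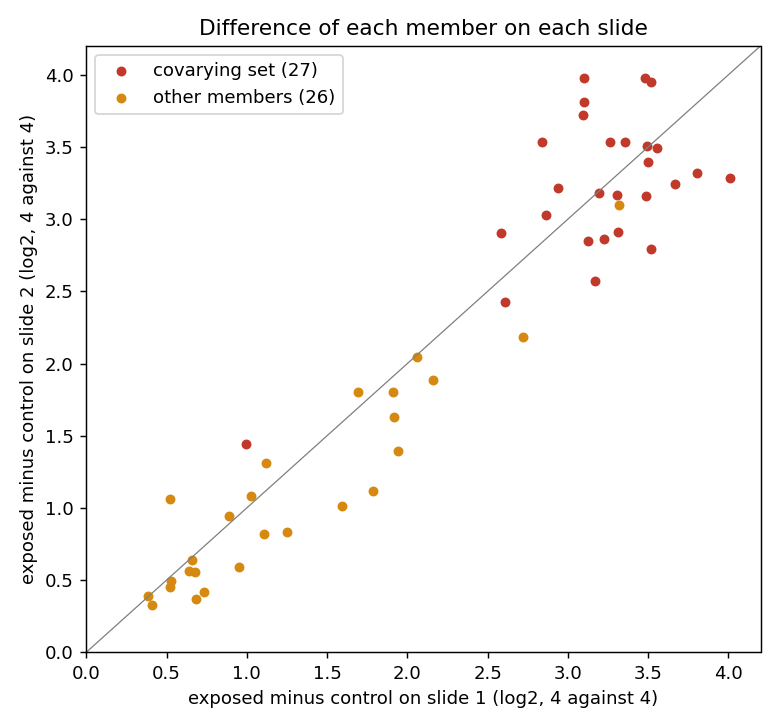
Exposed minus control difference (log2) of each member on slide 1 (horizontal axis) and slide 2 (vertical axis), 4 exposed against 4 control arrays each, with the covarying set of 27 in red, the 26 other members in orange and a grey line of equal differences. Members lie along the line, with 13 of the 27 and 6 of the 26 above it.

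Whether the difference of a member changed between slides was tested with a slide-by-exposure term. No member passed in limma, adjusting by Benjamini-Hochberg over the 7556 probes, the lowest adjusted p among members being 0.431, and no member had an unadjusted p below 0.05. Of all tested probes 0 passed (0.0%) and 816 had an unadjusted p below 0.05 (10.8%). The term had a median of -0.08 over the members and 0.21 over all tested probes. A large term would have widened the groups and so made membership less likely, which limits what this count says.

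The level of the members did differ between slides. The slide difference, slide 2 minus slide 1 with exposure in the model, was below 0 for all 27 of the covarying set, with a median of -0.62, and for 11 of the 26 others, with a median of 0.06. Over all tested probes it was below 0 for 34.9% and had a median of 0.16. The clustering used deviations from group means across both slides, so it favours a shared slide difference within the set. Animals 1 to 4 of each group were on slide 1 and animals 5 to 8 on slide 2, so slide and animal cannot be told apart. The sign depended on scaling: without scaling, which moved the median slide difference of all probes to 0.89, it was below 0 for 9 of the 27, although all 27 stayed below that median.

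Of the members, 4 passed the test of the slide difference in limma with Benjamini-Hochberg adjustment, all of them lower on slide 2 and all in the covarying set. That is 7.55% of the members, against 18.6% of all tested probes, of which 6.5% were lower and 12.1% higher on slide 2. A slide shift widens both groups, so the rule favours members with a small one. The probe of contig_6676 had the lowest adjusted p, 0.00781, with a slide difference of -0.95 (SE 0.22). Its exposed animals read -2.78, -2.17 and -0.96 (lowest, median, highest), against -5.64, -5.18 and -4.14 in control animals. It was detected on 3 control arrays, and its values in control 7 and control 8, both on slide 2, were at the floor, so this slide difference rests in part on signals not above background. The others were contig_6580 at -0.85 (SE 0.24, adjusted p = 0.0229 in limma), contig_7311 at -0.59 (SE 0.18, adjusted p = 0.0288 in limma) and contig_4735 at -1.05 (SE 0.33, adjusted p = 0.0356 in limma). Leaving out exposed 3, exposed 8, control 2 or control 5 brought the count to 2 in each case.

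Few probes outside the module followed it among animals. Of 7503 such probes, 9 had r above 0.7 with the mean within-group deviation of the 53 members over 16 arrays. None of the 9 was called between exposed and control animals in limma at an adjusted p below 0.05, and their median difference was 0.07. Of all tested probes 2.29% were called, a share that includes all 53 members. As that share is small, the lack of a call among 9 probes says little. The closest was contig_6978, at r = 0.770. Its exposed animals read -1.01, -0.60 and 0.16 (lowest, median, highest), against -3.21, -0.41 and 0.30 in control animals, with control 5 the lowest by far, and the groups overlapped. Next were contig_4874, at r = 0.768 with a difference of -0.14, and contig_8498, at r = 0.747 with a difference of 0.93 and an adjusted p of 0.0505 in limma. The difference of contig_4874 changed sign without scaling, to 0.05, and that of contig_6978 without control 5, to -0.10.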

How the data were processed

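Whole-body total RNA of 8 exposed and 8 control amphipods was measured on 1-colour arrays. The deposited scanner files hold spot intensities that Agilent Feature Extraction 10.7.3.1 had background-corrected, per the file headers; the submitters' processing notes name version 9.1. The deposited table of log2 values, median-centred per probe by the authors as its values show, served as an alternative, and how it was scaled is unknown. Arrays have no depth, so precision rests on how many there are. No spot was saturated. Outlier spots were left out, and signals were divided by each array's 75th percentile, floored at 0.02 of it and taken to log2. Spots of a probe were averaged. limma 3.58.1 in R 4.3.3 was fitted across all 7556 tested probes, with Benjamini-Hochberg adjustment and a threshold of 0.05. The limma steps were tested on simulated data. The members, lists and tests were chosen with earlier results of these data known. Contigs were named by rule: extremes of difference, gap, level, spread and within-group correlation, probes just outside the rule, members past the slide or interaction test, and the 3 outside probes that tracked the members best; others are said to be chosen after their values were seen. Alternatives covered scaling, background correction (normexp, offset 50), floor, outlier spots, filter, threshold, slide, blocks, the deposited table and leaving out single arrays. Correlations within groups and slides, within each group, and sets cut at 0.8 were added after seeing the data.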

Additional observations from a re-analysis of the deposited data

Results flagged for a closer look

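The 56 groups of values examined were the named contigs and the mean levels of both subsets, each in exposed and in control animals. Of these, 5 held a value far from the rest of its group by Dixon's criterion. In groups not chosen for their values, chance alone flags about 1 in 20, or 2.8. That rate does not hold here, since contigs were named for extremes. Among those flagged, contig_4735 was named for its SD in exposed animals, and contig_3691 and contig_5141 for theirs in control animals. Exposed 1 stood above the other exposed animals for contig_5659, at 1.35 with the next at -0.15, and for contig_4735, at 3.35 with the next at 1.79. Control 5 stood below the other control animals for contig_3691, at -3.42 with the next at -1.17, and for contig_5141, at -3.43 with the next at -1.26. These 4 contigs belong to the covarying set and are not independent of each other. The mean of the 26 other members in control 4 was -1.21, with the next lowest control at -1.04. Their causes were not tested.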

How the results depend on the processing

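The count of 53 members became 34 without scaling, 33 of them among the 53, and 43 with median scaling, 60 with quantile normalization, 46 with normexp and 60 in the deposited table, of which 40, 47, 44 and 48 in that order were among the 53. It was 306 with slide 1 only and 212 with slide 2 only, where 4 arrays per group must separate, and 54 to 63 without any single array, where fewer arrays must. Exposure calls over all probes, 173 (86 higher, 87 lower), became 99 at an adjusted p below 0.01, 96 with median scaling (60 higher, 36 lower), 55 without scaling (44 higher, 11 lower), 290 with slide as a block, 95 on slide 1 and 91 on slide 2, and 131 to 209 without single arrays. Members past the slide test, 4, became 8 with median scaling, 26 without scaling and 2 to 6 without single arrays; the slide-by-exposure term gave 0 or 1 call without single arrays (1 without exposed 2, control 2 or control 6). The median r between members, 0.160, became 0.585 without scaling and 0.133 to 0.199 without single arrays, and the covarying set held 26 to 29. The difference of contig_4874, -0.14, became 0.049 without scaling and 0.0044 with quantile normalization; that of contig_6978, 0.25, became -0.091 on slide 1 and ranged from -0.10 to 0.40 without single arrays. With normexp the difference of contig_5659 was 1.88 in place of 3.24, that of contig_6580 1.63 in place of 2.52, that of contig_7908 2.41 in place of 3.19, and those of contig_5085 1.18, contig_6676 1.02, contig_5028 0.24, contig_8332 0.30 and contig_8498 0.24; a floor of 0.05 gave contig_5085 2.24 and contig_6676 2.27. Without scaling contig_4645 was 0.56, contig_5028 0.58 and contig_1961 0.65. The causes were not tested. All 53 members stayed higher in exposed animals in every setting that tested them. Where arrays were left out, 1 slide was used or a block was added, the rule fixed this outcome in advance. The other settings used the same 16 arrays on which the members were chosen, so this is no separate check. Replicate numbers were not taken to pair animals. Deviations of same-numbered animals had r between -0.38 and 0.72, exceeding 0.1 in 3 of 8 cases, and the best match of an array was its namesake for 4 of the 16. With the replicate block 167 probes were called.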
